A study of Homo sapiens with 6 samples.

Results

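The genes described here are 7 feedback regulators of p53: *MDM2*, *MDM4*, *PPM1D*, *RCHY1*, *RFWD2*, *CCNG1* and *USP7*. They were chosen by name, through the gene identifiers of the deposited matrix, with earlier results of these data known. Each symbol had a single row among the 57905 genes of the matrix, and all 7 were among the 16565 genes that passed the low-count filter. RNA-seq was made from HCT116, a line derived from a human colorectal carcinoma, in which p53 is wild type. Control cells (Nut 0h) received the vehicle DMSO, and the other cells received 10 µM Nutlin-3a, which keeps MDM2 from binding p53, for 1 h (Nut 1h) or 10 h (Nut 10h). Each of the 3 conditions had 2 biological replicates, so that 6 libraries were compared, and the question was how each regulator's RNA moved after p53 was released. All cells come from this single line. The same 2 vehicle libraries served as controls for both times. Hours of Nutlin-3a can therefore not be told apart from time in culture or handling.

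p53 is a transcription factor whose protein is kept scarce in unstressed cells because MDM2, a ubiquitin ligase, marks it for degradation. *MDM2* is itself a p53 target, so active p53 raises the RNA of its own inhibitor, and this is the best known negative feedback loop of the pathway. MDM4 (also MDMX) is a relative of MDM2 that binds p53, pairs with MDM2 and restrains transcription by p53. RCHY1 (Pirh2) and RFWD2 (now COP1) are further ubiquitin ligases of p53. PPM1D (Wip1) is a phosphatase that removes activating phosphates from p53 and from the kinases upstream of it. CCNG1 encodes cyclin G1, which recruits the phosphatase PP2A to MDM2, and USP7 (HAUSP) is a deubiquitinase that removes ubiquitin from both MDM2 and p53. Nutlin-3a blocks the p53-binding pocket of MDM2 and does not inhibit its ligase activity.

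The counts summed to between 26068076 and 35473485 per library, and each regulator had between 497 and 30031 counts in every library, so that every one was well covered. Of 8 epithelial markers, *VIL1* and *LGALS4* were at 15 counts or fewer and the other 6 were present in all libraries, but their levels moved with treatment. The summed level of the 8 was between 4977 and 5644 CPM in the controls, between 3518 and 3715 after 1 h and between 6336 and 7308 after 10 h. *EPCAM* (221 to 399 CPM) was highest after 1 h, whereas *KRT19* (657 to 2746 CPM), *KRT8* and *CDX2* were lowest then. The part of these shifts in the results was not tested. Markers of blood cells and endothelium, *PTPRC* and *CDH5*, had at most 2 counts in any library. Of the fibroblast markers, *DCN* had 0 counts throughout and *COL1A2* at most 25, whereas *COL1A1* had between 621 and 1484, highest in the controls. The fold changes at Nut 1h followed the GC content of the transcripts across all genes. The median log2 fold change of Nut 1h against Nut 0h was 0.79 in the 2609 genes with under 40% GC and -1.12 in the 2433 genes with 60% GC or more. Between Nut 10h and Nut 0h these medians were 0.03 and -0.08. The transcripts of all 7 regulators lie on the AT-rich side, from 35.5% GC in *RCHY1* to 48.6% in *USP7*, so values with a correction for this trend (a GC-content offset) are given beside the values of Nut 1h. Whether the trend arose in the cells or in library preparation was not tested. With 2 libraries per condition, the edgeR p-values rest on the spread between libraries, pooled over all 6 and drawn towards that of other genes. An exact two-sided permutation test of 2 against 2 cannot go below 0.333.

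p53 binds DNA as a tetramer, and its consensus site is a pair of half-sites of 10 bases each, a palindrome that reads alike on both strands. The window from 2000 bases before to 2000 bases after the start of the main transcript was searched on GRCh37 for 20 bases with at most 3 mismatches to 2 adjacent copies of the p53 consensus half-site. *MDM2* had the most matches, 4, and 2 of them lie 18 bases apart in its first intron. That stretch, at chr12:69202683-69202780 on the plus strand, is shown because *MDM2* had the largest change of the 7 genes at both times, with both matches in capitals.
MDM2 intron 1: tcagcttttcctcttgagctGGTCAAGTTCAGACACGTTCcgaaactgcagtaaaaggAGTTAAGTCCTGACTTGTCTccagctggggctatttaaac

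The upstream match of this pair (chr12:69202703-69202722) had 2 mismatches and the downstream one (chr12:69202741-69202760) had 3. The best match of *CCNG1* had 1 mismatch, the fewest of the 7 genes, and lies in its first intron at chr5:162864932-162864951, centred 340 bases after the start. *MDM4* had a match with 2 mismatches in its first intron, 536 bases after the start (chr1:204486061-204486080). In *PPM1D* the match nearest to the start had 3 mismatches and lies in the untranslated part of the first exon, at +68 (chr17:58677612-58677631). The best matches of *RCHY1*, *RFWD2* and *USP7* also had 3 mismatches. They are written below on the strand of each gene, with bases that fit the consensus in capitals and mismatches in lower case, so that the genes can be compared.
MDM2, upstream match: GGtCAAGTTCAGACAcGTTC
MDM2, downstream match: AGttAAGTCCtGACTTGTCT
CCNG1: GcACAAGCCCAGGCTAGTCC
MDM4: GtGCTTGTTTGAAaATGCTT
PPM1D: GGACAAGTCCAGACATcgCg
RCHY1: AAGCTgGTTCAAAtTTtTCT
RFWD2: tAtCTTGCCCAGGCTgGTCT
USP7: GGGCTcGCCCGcACcTGCTC

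In *PPM1D* all 3 mismatches fall in the last 4 bases, whereas in *RCHY1* and *USP7* they are spread over both half-sites. Of the 16086 tested genes with a complete window, 0.746% had a match with at most 1 mismatch, 9.23% with at most 2 and 56.8% with at most 3. The matches with 3 mismatches are thus common, and a match describes letters in a window, not binding.

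**Figure D1:**
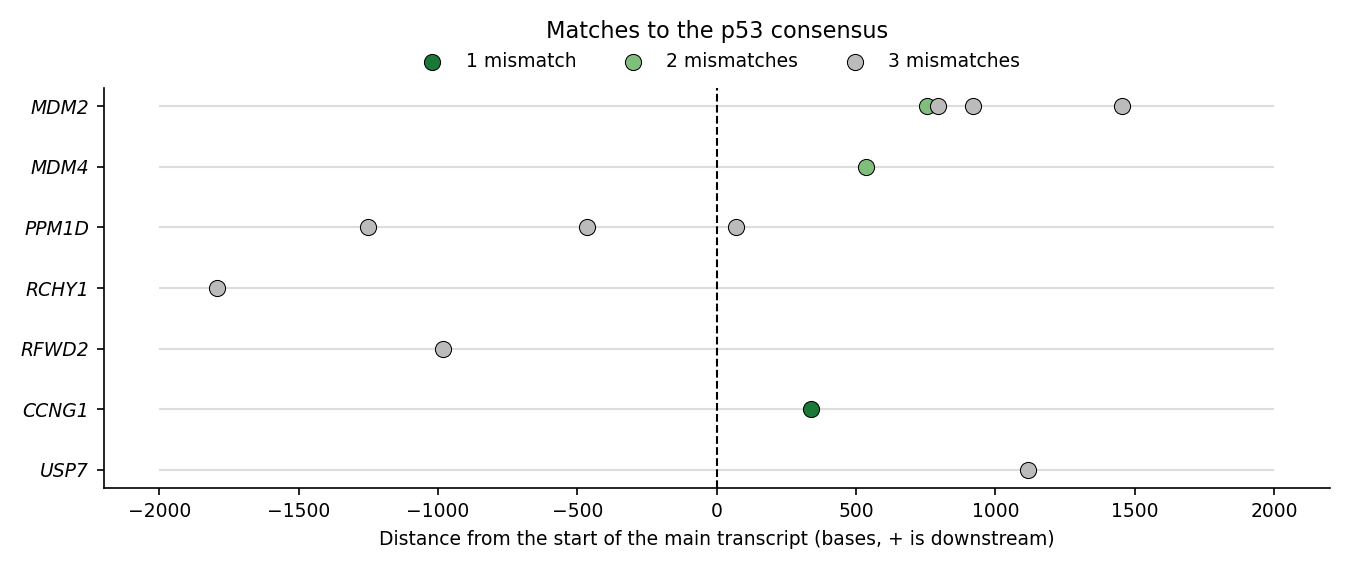
Matches to the p53 consensus within 2000 bases of the start of the main transcript of each of the 7 genes. The x axis is the distance in bases, positive downstream, and the colour gives the number of mismatches among 20 bases. The match of CCNG1 with 1 mismatch sits at +340, and 2 of the 4 MDM2 matches lie close together at +756 and +794.

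*MDM2* (ENSG00000135679, chr12:69201957-69239324, plus strand) rose at both times and had the largest change among the 7 genes. Its normalised counts were 1688 and 2083 in the controls, 8694 and 8500 after 1 h, and 22633 and 27946 after 10 h. Both libraries of each later time stood above both of the time before, with no overlap. The log2 fold change of Nut 1h against Nut 0h was 2.19 ± 0.13 (SE), a 4.56-fold difference (edgeR adjusted p = 3.5e-08), which placed *MDM2* at rank 250 of 16565 tested genes. At Nut 10h it was 3.75 ± 0.13, or 13.4-fold (edgeR adjusted p = 4.5e-10), at rank 34. From Nut 1h to Nut 10h the level rose 2.94-fold (edgeR adjusted p = 9.0e-08), or 4.57-fold with the GC-content offset. Against the controls the offset gave log2 fold changes of 1.53 after 1 h and 3.72 after 10 h, and both were still called. The 1275 other tested genes within 1 percentage point of its GC content (39.5%) had a median log2 fold change of 0.67 at Nut 1h, and 98.1% of them lay below *MDM2*. A long noncoding RNA inside the *MDM2* locus and on its strand, RP11-611O2.1, had 0 counts in both control libraries, 16 and 8 after 1 h, and 24 and 19 after 10 h. Its reads are few beside those of *MDM2*, from which they could not be separated with certainty.

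**Figure D2:**
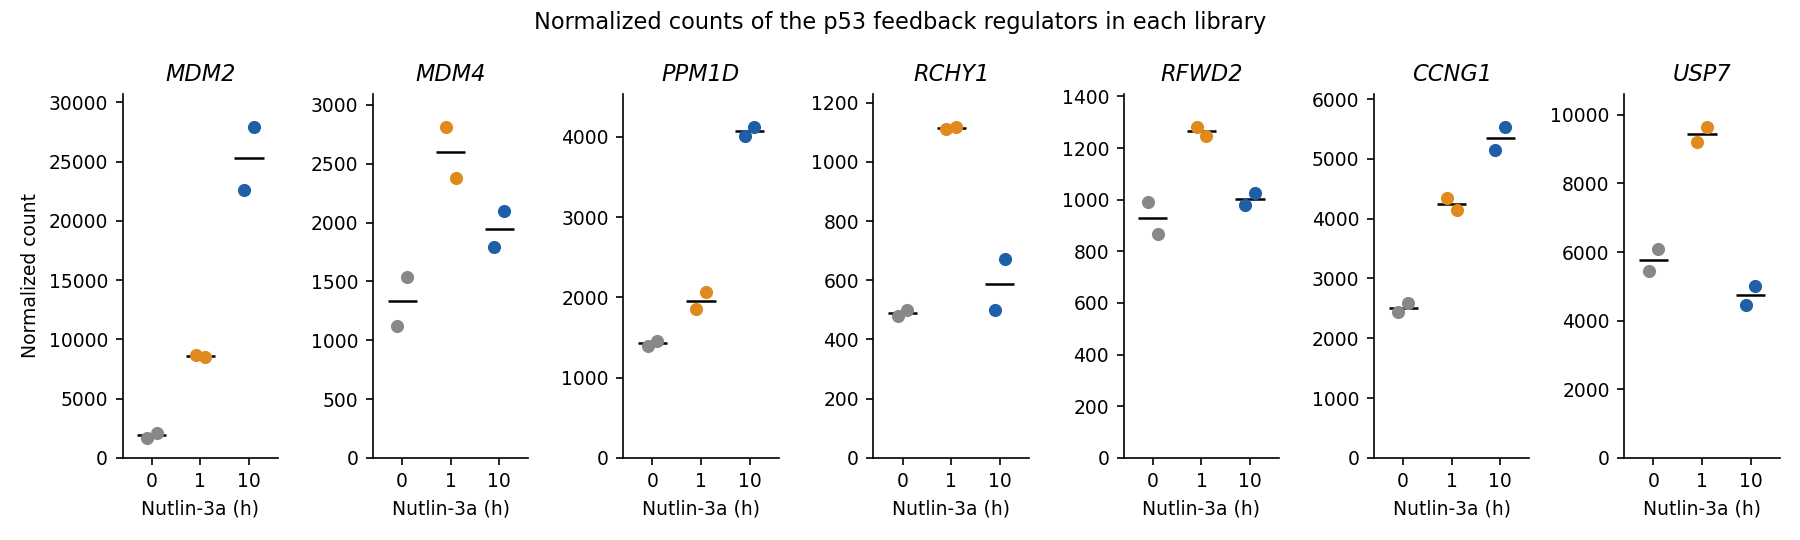
Normalised counts of the 7 genes in each library. The x axis gives hours of Nutlin-3a (0 is vehicle), points are the 2 libraries of a condition, horizontal lines their mean, and each panel has its own linear axis from 0. MDM2, PPM1D and CCNG1 are highest at 10 h, whereas MDM4, RCHY1, RFWD2 and USP7 are highest at 1 h.

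*MDM4* (ENSG00000198625, chr1:204485507-204527248, plus strand), the partner of MDM2, rose less and peaked at Nut 1h. Its normalised counts were 1123 and 1540 in the controls, 2815 and 2380 after 1 h, and 1791 and 2098 after 10 h. The 3 conditions did not overlap, although the control libraries differed from each other more, in proportion, than the other pairs did. The log2 fold change against Nut 0h was 0.96 ± 0.14 at Nut 1h (edgeR adjusted p = 3.4e-05) and 0.55 ± 0.14 at Nut 10h (edgeR adjusted p = 0.0092). Without Nut 0h replicate 1 the value at Nut 10h was 0.34 and was no longer called (edgeR adjusted p = 0.10). From Nut 1h to Nut 10h *MDM4* fell by 0.42 on the log2 scale (edgeR adjusted p = 0.015). This last call was lost without Nut 1h replicate 1 (edgeR adjusted p = 0.19) or Nut 10h replicate 1 (edgeR adjusted p = 0.079) and with an offset for transcript length (-0.12, edgeR adjusted p = 0.35), and with the GC-content offset the sign turned to 0.06 (edgeR adjusted p = 0.62). Under that offset the rises after 1 h (0.47) and 10 h (0.53) were nearly equal and both were called.

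The remaining ligases, *RCHY1* and *RFWD2*, were highest at Nut 1h and near the control level at Nut 10h. *RCHY1* (ENSG00000163743, chr4:76404243-76439974, minus strand) had normalised counts of 480 and 499 in the controls, 1112 and 1119 after 1 h, and 499.8 and 672 after 10 h. The Nut 1h libraries were clearly apart from the rest, while the lower Nut 10h library lay within 2 counts of the higher control. *RCHY1* rose 2.28-fold at Nut 1h (log2 fold change 1.19 ± 0.13, edgeR adjusted p = 2.6e-06), the largest rise after *MDM2* when no offset was used. Compared with the controls, its log2 fold change after 10 h was 0.26 (95% interval -0.02 to 0.54, edgeR adjusted p = 0.16), and without Nut 10h replicate 1 it was 0.46 and called (edgeR adjusted p = 0.0048). It fell by 0.93 on the log2 scale from Nut 1h to Nut 10h (edgeR adjusted p = 1.8e-05). *RCHY1* has the lowest GC content of the 7 genes, and 483 tested genes of like GC content had a median log2 fold change of 0.87 after 1 h. With the GC-content offset its rise at Nut 1h was 0.33 (edgeR adjusted p = 0.0074), below those of *USP7*, *MDM4* and *RFWD2*, and its difference between Nut 10h and Nut 1h was -0.09 and not called (edgeR adjusted p = 0.38). *THAP6*, on the opposite strand, overlaps the *RCHY1* locus and had a log2 fold change of 0.56 at Nut 1h (edgeR adjusted p = 0.00063). Reads in the overlap of the genes could have been assigned to either, since the strand setting of the counting is not given in the sources used here.

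*RFWD2* (ENSG00000143207, chr1:175913967-176176422, minus strand) had normalised counts of 990.5 and 866 in the controls, 1283 and 1247 after 1 h, and 978 and 1025 after 10 h. Both Nut 1h libraries were above the other 4, and the Nut 0h and Nut 10h libraries overlapped. Its rise after 1 h was 0.45 ± 0.10 on the log2 scale (edgeR adjusted p = 0.0014) and 0.34 with the GC-content offset (edgeR adjusted p = 0.0035). At Nut 10h it was 0.11 (95% interval -0.11 to 0.33, edgeR adjusted p = 0.46). The fall from Nut 1h to Nut 10h, 0.34 on the log2 scale, was called (edgeR adjusted p = 0.0091). It missed the threshold without Nut 1h replicate 1, Nut 1h replicate 2 or Nut 10h replicate 1 (edgeR adjusted p = 0.078, 0.052 and 0.067).

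*PPM1D* (ENSG00000170836, chr17:58677554-58743641, plus strand) had the largest rise after 10 h apart from *MDM2*. Its normalised counts were 1393 and 1458 in the controls, 1849 and 2067 after 1 h, and 4009 and 4127 after 10 h. The conditions did not overlap, and the Nut 10h libraries stood far above the other 4. It rose by 0.46 ± 0.10 on the log2 scale after 1 h (edgeR adjusted p = 0.00073) and 1.51 ± 0.10, or 2.85-fold, after 10 h (edgeR adjusted p = 3.7e-08). The rise from Nut 1h to Nut 10h was 2.08-fold (edgeR adjusted p = 3.1e-07). At Nut 1h its rise lay below the median of 0.57 of the 1345 tested genes of like GC content (41.4%), and with the GC-content offset the value was -0.10 (95% interval -0.26 to 0.06, edgeR adjusted p = 0.31). At Nut 10h the offset left it at 1.49, above 98.6% of the genes of like GC content when no offset was used.

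*CCNG1* (ENSG00000113328, chr5:162864575-162873157, plus strand) had normalised counts of 2434 and 2589 in the controls, 4351 and 4144 after 1 h, and 5154 and 5539 after 10 h. Each time lay above the one before in both libraries. Its rise on the log2 scale was 0.76 ± 0.09 after 1 h (edgeR adjusted p = 6.9e-06) and 1.09 ± 0.09, or 2.13-fold, after 10 h (edgeR adjusted p = 6.8e-07). Its further rise from Nut 1h to Nut 10h, 0.33 on the log2 scale (edgeR adjusted p = 0.0051), was not called without Nut 1h replicate 2 (edgeR adjusted p = 0.071) or with an offset for transcript length (0.14, edgeR adjusted p = 0.18). At Nut 1h *CCNG1* sat on the median of the 1079 tested genes of like GC content (38.0%), which was 0.76. With the GC-content offset its value at Nut 1h was 0.02 (95% interval -0.11 to 0.15, edgeR adjusted p = 0.81), and its rise from Nut 1h to Nut 10h was 1.05 (edgeR adjusted p = 1.1e-09). *CCNG1* and *PPM1D* were thus the only regulators whose call at Nut 1h was lost with this offset.

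*USP7* (ENSG00000187555, chr16:8985954-9069185, minus strand) rose at Nut 1h and was the only regulator below its control level at Nut 10h. Its normalised counts were 5437 and 6089 in the controls, 9223 and 9657 after 1 h, and 4456 and 5012 after 10 h. The Nut 1h libraries were highest and the Nut 10h libraries lowest, without overlap. The rise at Nut 1h was 1.64-fold (log2 fold change 0.71 ± 0.10, edgeR adjusted p = 2.2e-05). It was little changed by the GC-content offset, at 0.65 (edgeR adjusted p = 2.8e-06). The fall from Nut 1h to Nut 10h, by 1.00 on the log2 scale (edgeR adjusted p = 8.8e-07), was close in size to that of *RCHY1* without the offset and was 0.96 with it. Against Nut 0h the value at Nut 10h was -0.28 ± 0.10, just past the threshold (edgeR adjusted p = 0.044). That call was lost without Nut 0h replicate 2, Nut 1h replicate 1, Nut 1h replicate 2 or Nut 10h replicate 1 (edgeR adjusted p = 0.28, 0.096, 0.096 and 0.26). With the GC-content offset *USP7* was called lower at Nut 10h, at -0.31 (edgeR adjusted p = 0.0025). In bulk RNA, fewer cells with a transcript and less of it per cell cannot be told apart.

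Counted over the group, 7 of 7 regulators were called higher at Nut 1h than at Nut 0h. In this comparison 34.5% of all tested genes were called higher and 32.3% lower. The share called higher was 82.64% in genes under 40% GC, where *MDM2*, *RCHY1* and *CCNG1* lie. It was 63.83% from 40% to 45% GC (*MDM4* and *PPM1D*) and 33.85% from 45% to 50% (*RFWD2* and *USP7*). Counts of mitochondrial genes also moved in this comparison, from between 4.99% and 6.18% of a control library to between 8.15% and 8.44% after 1 h, and the 7 calls held with these genes left out. The median log2 fold change of the regulators was 0.76, beside 0.05 over all tested genes. With the GC-content offset 5 of the 7 were called higher at Nut 1h, and their median was 0.34 beside 0.02. With that offset 23.1% of all genes were called higher and 23.2% lower. At Nut 10h against Nut 0h, *MDM2*, *PPM1D*, *CCNG1* and *MDM4* were called higher, against 14.1% of all genes, and *USP7* lower, against 14.9%. The GC-content offset left the same 5 calls, where 18.9% of all genes were then higher and 20.2% lower. Between Nut 10h and Nut 1h the regulators divided into *MDM2*, *PPM1D* and *CCNG1*, called higher (34.2% of all genes), and *USP7*, *RCHY1*, *MDM4* and *RFWD2*, called lower (33.7%). With the offset the 3 rises and the falls of *USP7* and *RFWD2* were called, where 29.0% of all genes were higher and 29.4% lower. The comparisons against Nut 0h share the same control libraries and are not independent of each other.

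**Figure D3:**
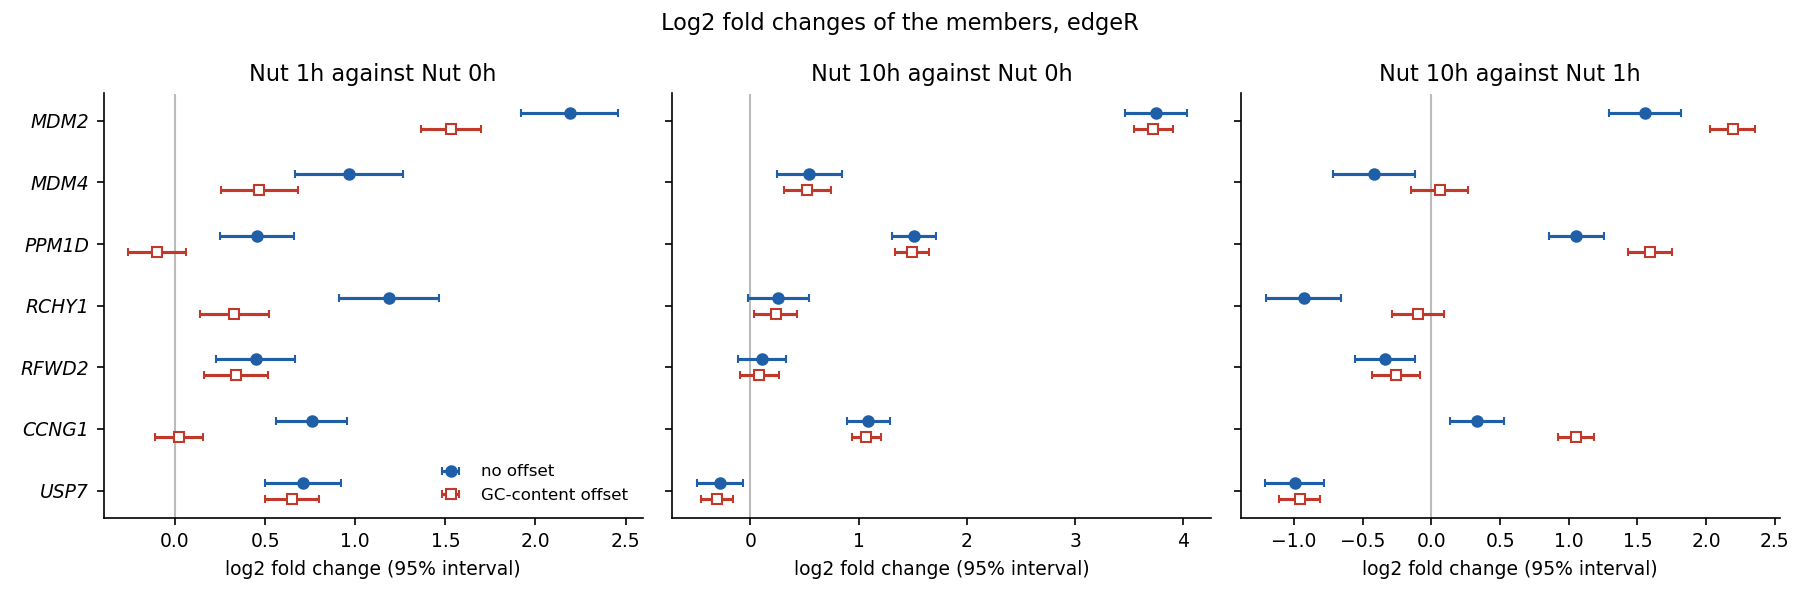
Log2 fold changes of the 7 genes in the 3 comparisons. Filled circles are the edgeR estimates without an offset, open squares those with the GC-content offset, and bars are 95% intervals. At Nut 1h against Nut 0h the intervals of the open squares of PPM1D and CCNG1 include 0, and at Nut 10h against Nut 0h both estimates nearly coincide for all 7 genes.

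**Figure D4:**
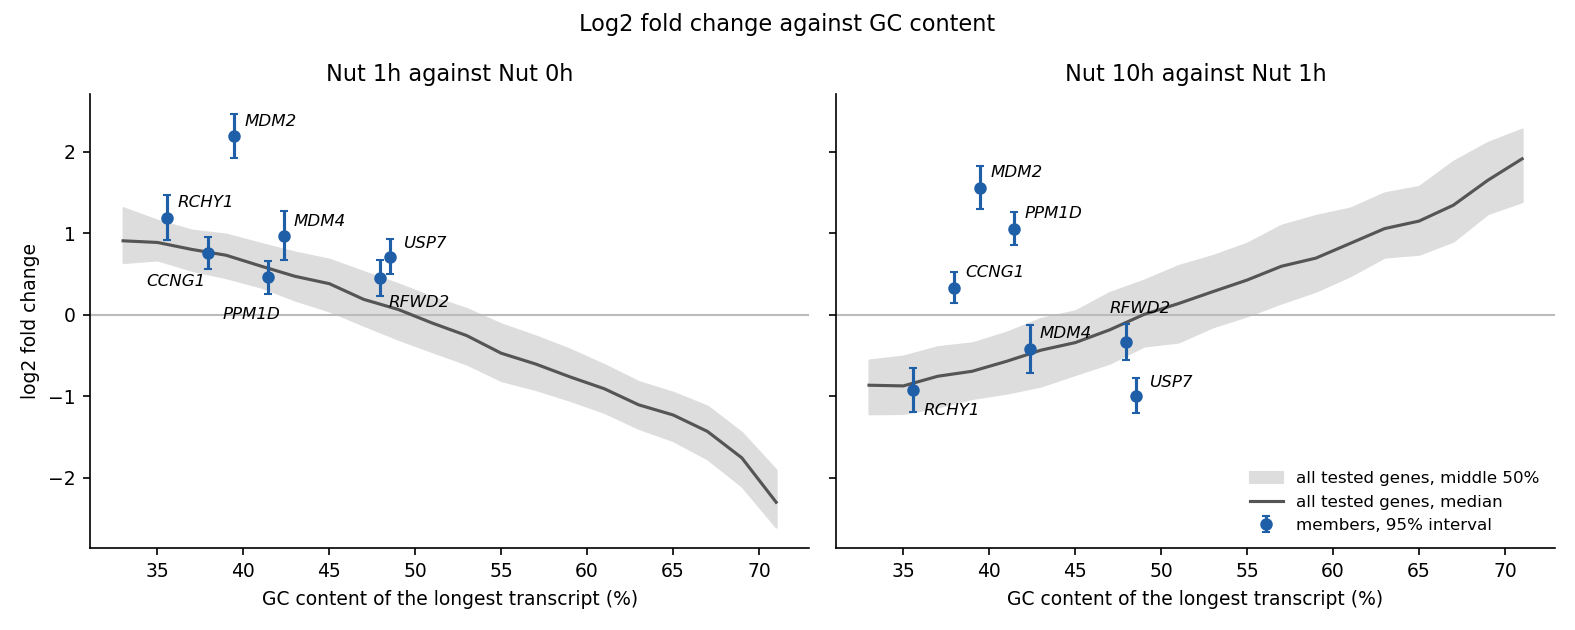
Log2 fold change against the GC content of each gene's longest transcript, for Nut 1h against Nut 0h and Nut 10h against Nut 1h. The line and band are the median and the middle 50% of all tested genes, and points with 95% intervals are the 7 genes. MDM2, USP7, MDM4 and RCHY1 lie above the upper edge of the band at 1 h, whereas CCNG1 and PPM1D follow the median at 1 h and stand above it from 1 h to 10 h.

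Levels were compared between genes as CPM per kilobase of merged exons. At Nut 0h *CCNG1* was highest at 24.6 ± 1.1 (SD, n = 2), followed by *USP7* at 19.98 ± 1.60. *MDM2* (6.88 ± 1.02) and *RFWD2* (6.73 ± 0.64) came next and overlapped. Below them lay *PPM1D* at 4.59 ± 0.15, *MDM4* at 3.66 ± 0.81 and *RCHY1* at 2.34 ± 0.06, without overlap between neighbours. At Nut 1h *MDM2* reached 31.4 ± 0.50, just under *USP7* at 32.7 ± 1.1, and *MDM4* (7.15 ± 0.85) and *PPM1D* (6.30 ± 0.50) overlapped. At Nut 10h *MDM2* was highest, at 92.2 ± 13.7, followed by *CCNG1* at 52.3 ± 2.7, *USP7* at 16.4 ± 1.4, *PPM1D* at 13.1 ± 0.27, *RFWD2* at 7.26 ± 0.24, *MDM4* at 5.35 ± 0.60 and *RCHY1* at 2.80 ± 0.58, and no neighbours overlapped. Divided by the longest transcript in place of merged exons, *MDM2* at Nut 0h stood below *RFWD2* and *PPM1D*, *PPM1D* stood above *MDM4* at Nut 1h, and the order at Nut 10h was the same.

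The balance of the transcripts shifted towards *MDM2* within every treated library. Per kilobase, the ratio of *MDM2* to *MDM4* was 1.99 and 1.79 in the control libraries, 4.09 and 4.73 after 1 h, and 16.7 and 17.7 after 10 h. The ratio of *MDM2* to the deubiquitinase *USP7* was 0.327 and 0.360 in the controls, 0.992 and 0.926 after 1 h, and 5.34 and 5.87 after 10 h. Neither ratio overlapped between conditions. The ratio to *PPM1D* was 1.37 and 1.62, then 5.33 and 4.66, then 6.39 and 7.67, so that most of its shift was present at Nut 1h. The level of each ratio depends on the lengths used, and per kilobase of the longest transcript the mean level of *MDM2* in the controls was below that of *PPM1D* (7.63 and 8.37 CPM). The ratios need no scaling between libraries, but they keep any effect of GC content that differs between the genes. *MDM2* made up 12.5% and 13.8% of the summed CPM of the 7 genes in the controls, 29.6% and 29.2% after 1 h, and 57.3% and 60.2% after 10 h.

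**Figure D5:**
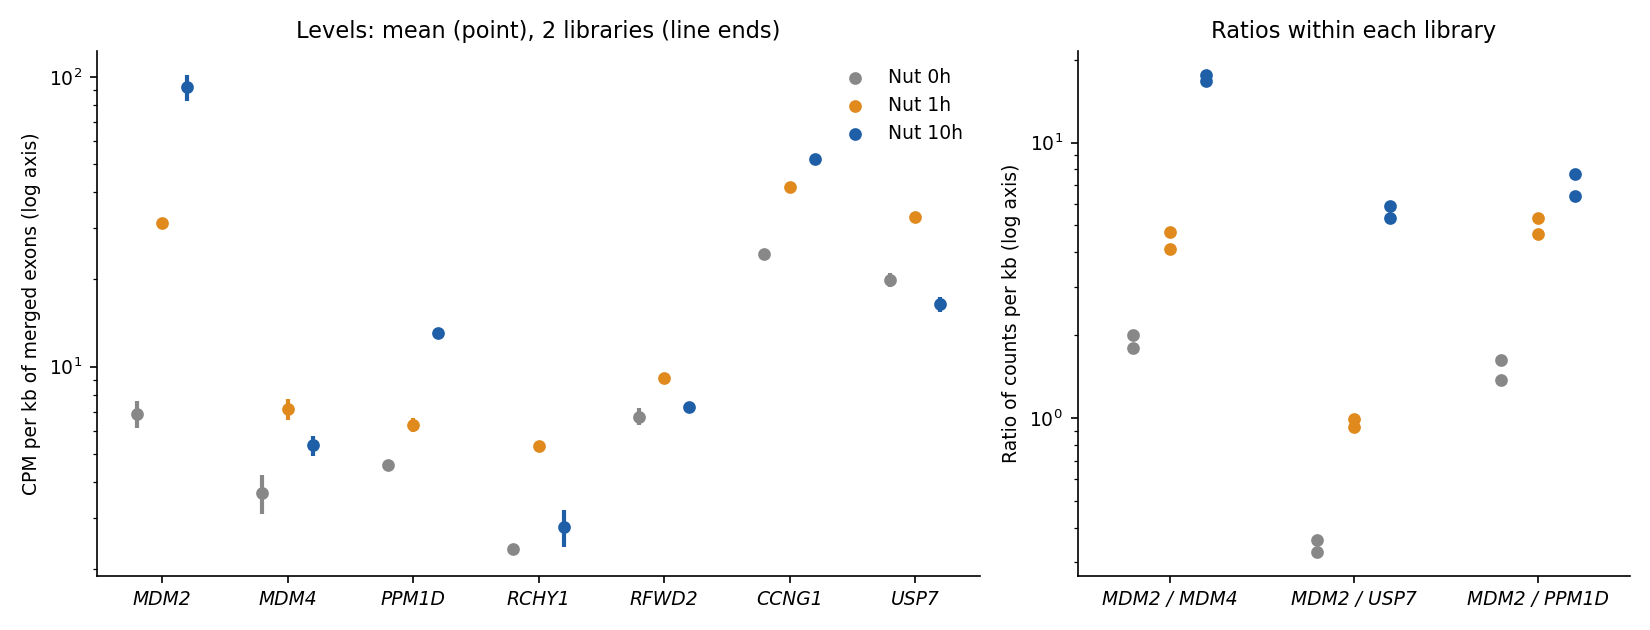
Left, levels of the 7 genes as CPM per kilobase of merged exons on a log axis, with points for the mean of each condition and lines between its 2 libraries. Right, ratios of counts per kilobase within each library on a log axis, for MDM2 over MDM4, USP7 and PPM1D. The MDM2 to MDM4 ratio goes from 1.99 and 1.79 at Nut 0h to 16.7 and 17.7 at Nut 10h.

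Genes with the most similar pattern over the 6 libraries were sought by the Euclidean distance of log2(CPM + 1) values centred on the Nut 0h mean. Among the nearest to *MDM2* were *TP53INP1* and *BTG2*, both long-known p53 targets, at distances of 1.44 and 2.11. The other regulators had much closer neighbours, with distances from 0.06 to 0.31. *CMBL*, *PLEKHG1* and *ZNF79* were nearest to *PPM1D*, and *TMEM68*, *METTL8* and *CLN8* to *CCNG1*. *TMTC3*, *HELZ* and *FER* were nearest to *MDM4*, and *TYW3*, *UTP15* and *ZNF484* to *RCHY1*. *COPG2*, *KIAA1199* and *FBXO33* were nearest to *RFWD2*, and *TSN*, *GMCL1* and *VPS29* to *USP7*. Ranking by Pearson correlation kept 1 of the 3 neighbours for *RFWD2* and *CCNG1* and 0 of 3 for the others.

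The wider pathway was described by 69 other genes, all of them tested, in 9 lists of enzymes and partners of p53 and of the 7 regulators. At Nut 10h, 8 of the 69 were called higher than at Nut 0h (11.6%) and 12 lower (17.4%), beside 14.1% and 14.9% of all tested genes, with a median log2 fold change of -0.08. Under the GC-content offset 11 were higher and 20 lower, beside 18.9% and 20.2% of all genes. A single gene of the 69 exceeded the rise of *PPM1D* at Nut 10h, *RPS27L*. *RPS27L* encodes a ribosomal protein that binds MDM2 and is itself a p53 target, and its normalised counts were 1043 and 1226 in the controls, 1574 and 1552 after 1 h, and 4002 and 4432 after 10 h. It was 1.89 higher on the log2 scale at Nut 10h than at Nut 0h (edgeR adjusted p = 1.1e-08), and 1.87 higher with the GC-content offset. From Nut 1h to Nut 10h it rose by 1.43, or by 1.95 with the offset. At Nut 1h, 29 of the 69 were called higher (42.0%) and 24 lower (34.8%), beside 34.5% and 32.3% of all tested genes, and with the GC-content offset 17 were higher and 27 lower, beside 23.1% and 23.2% of all genes. The counts of the single lists are to be read against the shares of all genes under the same setting.

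Among 7 other ubiquitin ligases of p53, 1 was called after 10 h (1 higher and 1 lower with the GC-content offset), *MKRN1*, which was higher (log2 fold change 0.37, edgeR adjusted p = 0.0075). At Nut 1h 3 were higher and 2 lower (2 and 2 with the GC-content offset). *TOPORS* rose by 1.16 on the log2 scale (edgeR adjusted p = 5.7e-07), or by 0.52 with the offset (edgeR adjusted p = 4.9e-05). It had 1673 and 1722 normalised counts beside 751 and 764 at Nut 0h. *STUB1* fell by 1.12 (edgeR adjusted p = 2.8e-06), and with the offset was at 0.15 and not called (edgeR adjusted p = 0.091). Of 7 other deubiquitinases of p53 or MDM2, 6 were called lower after 1 h, beside 32.3% of all tested genes, and the other was not called. With the GC-content offset 2 of the 7 were called lower, beside 23.2% of all genes, and their median log2 fold change was 0.02. *OTUB1*, which fell by 0.87 without the offset, was at 0.05 with it (edgeR adjusted p = 0.55). At Nut 10h 2 of the 7 were lower (4 with the offset), *USP28* (-0.44, edgeR adjusted p = 0.018) and *USP5* (-0.38, edgeR adjusted p = 0.012).

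Of 10 kinases that phosphorylate p53, 8 were called higher and 2 lower after 1 h (6 and 1 with the GC-content offset), and after 10 h 2 were lower and the other 8 not called (1 higher and 3 lower with the offset). *CHEK1*, the checkpoint kinase that responds to stalled replication, had 1647 and 1723 normalised counts in the controls, 3089 and 3044 after 1 h, and 688 and 806 after 10 h. It was lower at Nut 10h than at Nut 0h by 1.17 on the log2 scale (edgeR adjusted p = 9.2e-07). Its course, highest at Nut 1h and lowest at Nut 10h, was that of *USP7* with a larger fall. From Nut 1h to Nut 10h *CHEK1* fell by 2.04 on the log2 scale, or by 1.51 with the GC-content offset. Of 9 enzymes that acetylate, deacetylate or methylate p53, 4 were higher and 2 lower after 1 h (4 and 3 with the offset). After 10 h 2 were lower and the other 7 not called (1 higher and 4 lower with the offset), and *SETD8* fell by 0.73 (edgeR adjusted p = 3.6e-05).

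Of 7 genes whose products bind and inhibit MDM2, 4 were called higher and 1 lower after 1 h, and 1 and 1 after 10 h. The balance after 1 h turned over with the GC-content offset, to 0 higher and 4 lower, and the median log2 fold change went from 0.27 to -0.22. Of 6 genes of other feedback loops around p53, 1 was higher and 3 lower after 1 h (the same counts with the offset), and 1 and 4 after 10 h. *TP73*, which encodes a relative of p53, was among the latter, with 2766 and 2402 normalised counts in the controls, 1195 and 1264 after 1 h, and 958 and 686 after 10 h. With the GC-content offset its log2 fold change after 1 h went from -1.07 to -0.14 and was not called (edgeR adjusted p = 0.18). After 10 h its log2 fold change was -1.65 (edgeR adjusted p = 5.3e-07), and -1.61 with the offset.

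Among 10 partners of cyclin G1, mostly PP2A subunits, 5 were higher and 5 lower after 1 h (1 and 6 with the GC-content offset), and 2 and 1 after 10 h (2 and 3 with the offset), when *PPP2CB* rose by 0.36 (edgeR adjusted p = 0.013) and *PPP2R5A* fell by 0.36 (edgeR adjusted p = 0.0088). Of 7 partners of the COP1 ligase, 2 were higher and 2 lower at Nut 1h (1 and 3 with the offset). After 10 h edgeR called 0 of the 7, with 0 at an unadjusted p under 0.05 and 0 called by DESeq2. Of 8 relatives of the regulators, 3 were higher and 2 lower at Nut 1h (2 and 4 with the offset). At Nut 10h 3 of them were higher and 1 lower (4 and 1 with the offset). *PPM1A*, a phosphatase of the family of PPM1D, was 0.71 higher on the log2 scale (edgeR adjusted p = 6.2e-05) and *PPM1G*, of the same family, 0.64 lower (log2 fold change -0.64, edgeR adjusted p = 0.00029).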

How the data were processed

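RNA-seq counts per gene were used for 6 libraries of HCT116 cells. The authors trimmed paired-end reads with Trim Galore (0.6.6), mapped them to GRCh37.p13 with STAR (2.7.0f) and counted them with featureCounts from Subread (2.0.0). The deposited counts were not normalized. A deposited table of the authors' own DESeq2 (1.36.0) comparisons, with log2 fold changes and p-values, served only to pair identifiers with symbols. The strand setting and the treatment of reads mapping to several places are not given in the sources used here.

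After filterByExpr and TMM scaling, a quasi-likelihood model of edgeR (4.0.16, with limma 3.58.1 under R 4.3.3) was fitted to all 6 libraries, with no term but the condition and 3 residual degrees of freedom. The spread of each gene was moderated towards that of other genes, with a median of 10.7 prior degrees of freedom. Benjamini-Hochberg adjustment covered all 16565 genes, and adjusted p-values of 0.05 or less were called. Normalised counts are counts scaled to the mean TMM-adjusted library size, and CPM use the same scaling. Intervals cover 95%. The replicates of each condition correlated with r between 0.997 and 0.998 across genes and differed by more than sampling noise. The GC-content and length offsets remove a loess trend (span 0.4), fitted in every library, on the GC content or length of a gene's longest transcript in GENCODE lifted to GRCh37, and 97.4% of tested genes had a GC content. The test was also run on simulated data.

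The 7 genes and the pathway lists were chosen with earlier results of these data known. Named besides the 7 genes were at most 2 called genes per list and comparison, those with the largest change among genes that averaged 100 or more normalized counts and whose conditions did not overlap, and the 3 genes nearest in pattern to each regulator with the same minimum. The rule also allowed genes that are not all printed here, and 1 further gene that it names is not reported. Alternatives were RLE normalization, library sizes only, other low-count filters, DESeq2 1.42.0, a replicate block, the 2 groups compared alone, both offsets, mitochondrial genes left out, and each library left out. The GC-content offset with the replicate block and a crossed replicate block were added after seeing the data. Sequences were read from the GRCh37 genome. Figures were drawn with matplotlib.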

Additional observations from a re-analysis of the deposited data

Results flagged for a closer look

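The level at Nut 10h differed from that at Nut 1h for each of the 7 regulators (edgeR adjusted p from 9.0e-08 for *MDM2* to 0.015 for *MDM4*). Without vehicle controls matched to each time, hours of Nutlin-3a cannot be told apart from time in culture or handling. The difference on the log2 scale was 1.56 for *MDM2*, 1.06 for *PPM1D* and 0.33 for *CCNG1*, which were higher at 10 h. It was -0.996 for *USP7*, -0.93 for *RCHY1*, -0.42 for *MDM4* and -0.34 for *RFWD2*, which were lower. In this comparison 34.2% of all tested genes were called higher and 33.7% lower. The differences of *MDM4* and *RCHY1* were not called with the GC-content offset, and those of *MDM4* and *CCNG1* were not called with the length offset. Those of *MDM4*, *RFWD2* and *CCNG1* also depended on single libraries, as given above. Groups of 2 libraries allowed no test for single libraries far from the rest.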

How the results depend on the processing

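The number of regulators called higher stayed at 7, 4 and 3 in the 3 comparisons (Nut 1h and Nut 10h against Nut 0h, and Nut 10h against Nut 1h) with RLE normalization, library sizes only, either low-count filter, DESeq2, and mitochondrial genes left out. The count of 1 regulator lower at Nut 10h than at Nut 0h (*USP7*) became 0 with library sizes only, with the 2 groups compared alone and with mitochondrial genes left out, and ranged from 0 to 1 with single libraries left out. The count of 4 lower at Nut 10h than at Nut 1h became 2 with the GC-content offset, also with the replicate block added, and ranged from 2 to 4 with single libraries left out. With the length offset 2 regulators were higher and 3 lower in this comparison, as *CCNG1* and *MDM4* were not called. The GC-content offset turned the sign of *PPM1D* at Nut 1h (-0.098, and -0.098 with the replicate block added) and of *MDM4* between Nut 10h and Nut 1h (0.061, and 0.056 with the block). The same replicate numbers did not pair the libraries across all conditions. Deviations of same-numbered libraries correlated at 0.45 between Nut 0h and Nut 10h. They correlated at -0.31 between Nut 0h and Nut 1h and at -0.28 between Nut 1h and Nut 10h. The replicate block left the regulators called higher at 7, 4 and 3 and lower at 0, 1 and 4, and called 2371 genes higher and 2522 lower at Nut 10h against Nut 0h, beside 2340 and 2470. A crossed replicate block, chosen after seeing the data, called 5 regulators higher at Nut 10h, and 3724 genes higher and 3907 lower. The regulator gained was *RCHY1* (0.26, edgeR adjusted p = 0.015). Leaving out Nut 0h replicate 1 moved the genes called lower at Nut 10h from 2470 to 1641. Over the 252 values of single regulators under settings other than leaving out a single library, 238 kept their direction and side of the threshold, 9 lost the call, 1 gained it and 4 changed sign. For the other changes with the processing given here the cause was not tested. With 1 library left in a condition, its spread is assumed to be that of the other conditions. Every regulator had at least 497 counts in each library, and 2 libraries per condition limit every interval.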
